A study of Sus scrofa with 16 samples.

Results

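NOS3 and ARG2, which code for a pair of enzymes that use arginine, were followed in left ventricular muscle of exercise-trained and sedentary pigs. They are 2 of the 6765 genes with a symbol of their own on the array, and all probe sets that the platform annotation gives either symbol alone were taken, 4 of 23935. NOS3 (Entrez 397557) had 1 probe set and ARG2 (Entrez 100155893) had 3, which are called the brightest, the second and the dim one by their mean signal. Both genes were selected on their exercised and sedentary signals in these same animals, so the training difference is given as a description without a test.

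The exercised group held 8 Yorkshire x Landrace pigs, 4 females and 4 castrated males, and the sedentary group 8 pigs of the same cross with the same numbers of each sex. All were 2 to 3 months old, and tissue was taken 4 to 5 weeks into the protocol. Each animal was measured on its own one-channel Affymetrix porcine array. The labels name neither the form nor the intensity of the exercise. No intact males were studied.

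Endothelial nitric oxide synthase, the product of NOS3, makes nitric oxide and citrulline from arginine in the cells that line blood vessels and the heart chambers. Nitric oxide relaxes vascular smooth muscle through guanylate cyclase and cyclic GMP, and blood flow along the vessel wall raises its output. Arginase 2, the product of ARG2, is the mitochondrial arginase and splits arginine into ornithine and urea. The 2 enzymes therefore draw on a common substrate, and ornithine feeds the synthesis of polyamines and proline.

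The arrays fell into 2 sets that the labels do not name, and these sets bear on both genes. The bacterial poly-A control transcripts, which are added to RNA before labelling, averaged 6.37 ± 0.24 log2 on 5 arrays (SD), the low set, and 8.30 ± 0.39 on 11 arrays, the high set. Hybridisation controls averaged 10.83 in the low set and 9.87 in the high set. The gap between 3' and 5' actin probe sets ran from 1.27 to 1.85 log2 in the low set and from 2.35 to 2.99 in the high set. For GAPDH that gap overlapped, from -0.21 to -0.10 in the low set and from -0.28 to -0.11 in the high set. The low set held exercised 7 and 8 and sedentary 6, 7 and 8, among them 1 female. All 12 measured cardiomyocyte markers lay at or above the 98.1 percentile of mean level.

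The NOS3 probe set lay at the 65.1 percentile of mean level. Its signal ran from 6.81 through a median of 7.02 to 7.74 log2 in exercised animals, against 6.81, 7.31 and 7.95 in sedentary animals. The groups overlapped over nearly their whole range, and 6 of 8 exercised animals lay below the sedentary mean. NOS3 averaged 7.15 ± 0.31 log2 in exercised animals and 7.28 ± 0.35 in sedentary animals (SD, n = 8 each), a difference of -0.13 (SE 0.157). This difference is smaller than the spread within either group.

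The NOS3 level moved with the array set more than with training. In exercised animals it was 7.48 and 7.74 on the 2 low-set arrays, against 6.81 to 7.20 on the 6 high-set arrays, without overlap. In sedentary animals it was 7.34, 7.39 and 7.95 on the low-set arrays, against 6.81 to 7.44 on the high-set arrays. Low-set minus high-set means differed by 0.61 in exercised and 0.44 in sedentary animals. The training difference was 0.05 within the low set and -0.12 within the high set, and -0.06 (SE 0.104) with array set as a block. The part of the array set in the NOS3 level was not tested further.

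The brightest ARG2 probe set lay at the 75.9 percentile of mean level. It ran from 7.75 through a median of 8.21 to 8.91 log2 in exercised animals, against 7.18, 7.59 and 8.05 in sedentary animals. All 8 exercised animals lay above the sedentary mean, 5 of them above the highest sedentary animal, and the groups overlapped. The means were 8.19 ± 0.40 log2 in exercised animals and 7.64 ± 0.33 in sedentary animals (SD, n = 8 each). The difference was 0.55 (SE 0.174), a 1.46-fold higher signal. Over the whole array 13.4% of probe sets had a training difference with an adjusted p under 0.05, with 6.48% higher and 6.88% lower, and 27% had an unadjusted p under 0.05. Since training values chose these genes, nothing is read from that share.

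The other ARG2 probe sets gave smaller differences of the same sign. The second probe set ran from 7.28 through 7.70 to 8.29 log2 in exercised animals, against 6.85, 7.28 and 7.82 in sedentary animals. Here 5 of 8 exercised animals lay above the sedentary mean, and the difference was 0.28 (SE 0.174). The dim probe set, at the 31.1 percentile, ran from 4.75 through 5.10 to 5.21 log2 in exercised animals, against 4.56, 4.83 and 5.01 in sedentary animals. On it 7 of 8 exercised animals lay above the sedentary mean, and the difference was 0.21 (SE 0.0816). The 3 probe sets read the same RNA of the same animals and are not separate replicates of the training effect.

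Across the 16 arrays the brightest and the second ARG2 probe sets moved nearly together, with r = 0.908. With each combination of training and sex centred on its own mean, r was 0.957. The dim probe set followed the brightest less closely, with r = 0.502, and r = 0.234 after that centring. These correlations are descriptions, and the arrays share the split into 2 sets.

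ARG2 moved with the array set in the opposite direction to NOS3. The brightest probe set was at 7.75 and 7.83 log2 on the exercised low-set arrays, against 7.76 to 8.91 on the high-set arrays. In sedentary animals the low-set values were 7.32, 7.55 and 7.63, and the high-set values 7.18 to 8.05. The low-set minus high-set difference was -0.52 in exercised and -0.22 in sedentary animals. The training difference on this probe set was 0.29 within the low set and 0.59 within the high set, and 0.48 (SE 0.143) with array set as a block. On the second probe set it was 0.22 in both sets, and on the dim one 0.15 in the low set and 0.22 in the high set.

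**Figure D1:**
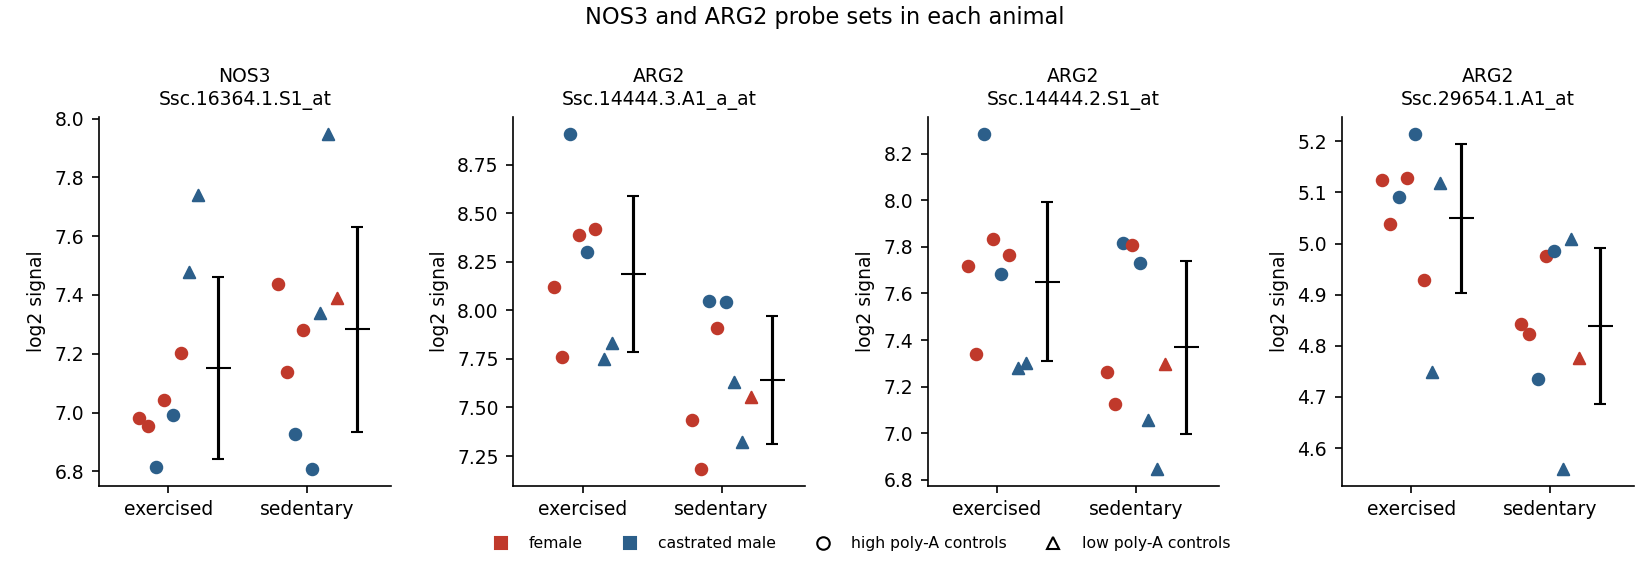
Log2 signal of, from left to right, NOS3 and the brightest, second and dim ARG2 probe sets in each of 8 exercised and 8 sedentary pigs, with mean and SD as a bar beside each group; colour gives sex and shape the array set. The exercised mean of the brightest ARG2 probe set is 8.19 against 7.64, and the low-set arrays, drawn as triangles, have a higher mean for NOS3 (7.58 against 7.05) and a lower mean for the brightest ARG2 probe set (7.62 against 8.05), with overlap in that panel.

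The sexes were compared next, a contrast that the choice of genes did not use. NOS3 averaged 7.18 ± 0.18 log2 in females and 7.26 ± 0.44 in castrated males (SD, n = 8 each), a difference of -0.08 with a 95% interval from -0.41 to 0.26 (limma adjusted p = 0.876). The wider spread in castrated males included 4 of the 5 low-set arrays. The brightest ARG2 probe set averaged 7.85 ± 0.45 in females and 7.98 ± 0.48 in castrated males, a difference of -0.13 with an interval from -0.50 to 0.24 (limma adjusted p = 0.791). The second and dim probe sets differed by 0.02 each, with limma adjusted p = 0.976 and 0.936. None of the 4 probe sets passed, beside 22 of 23935 (0.0919%) over the array, where 9.26% had an unadjusted p under 0.05.

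The array sets hold unequal numbers of each sex, and the sex differences changed sign or size with them. Within the 11 high-set arrays, NOS3 was 0.28 log2 higher in females than in castrated males, with an interval from 0.10 to 0.46. The brightest ARG2 probe set was -0.48 there, with an interval from -0.86 to -0.10. Their unadjusted p values were 0.00618 and 0.0173, and neither passed over all probe sets (limma adjusted p = 0.41 and 0.501). With array set as a block the differences were 0.14 for NOS3 and -0.32 for ARG2 (limma adjusted p = 0.967 for both).

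Training differences within each sex were then set side by side. NOS3 averaged 7.05 ± 0.11 log2 in exercised females and 7.31 ± 0.13 in sedentary females (SD, n = 4 each), a difference of -0.27. In castrated males it averaged 7.26 ± 0.43 in exercised and 7.26 ± 0.51 in sedentary animals, so the means were level. The difference between these training effects was -0.27, with a 95% interval from -0.93 to 0.40 (limma adjusted p = 1.00). The brightest ARG2 probe set differed by 0.65 in females and 0.44 in castrated males. The difference between those effects was 0.21, with an interval from -0.53 to 0.95 (limma adjusted p = 1.00). The intervals are wide beside the training differences themselves. By limma 0 of 23935 probe sets (0%) passed for this contrast, and 621 (2.59%) had an unadjusted p under 0.05.

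**Figure D2:**
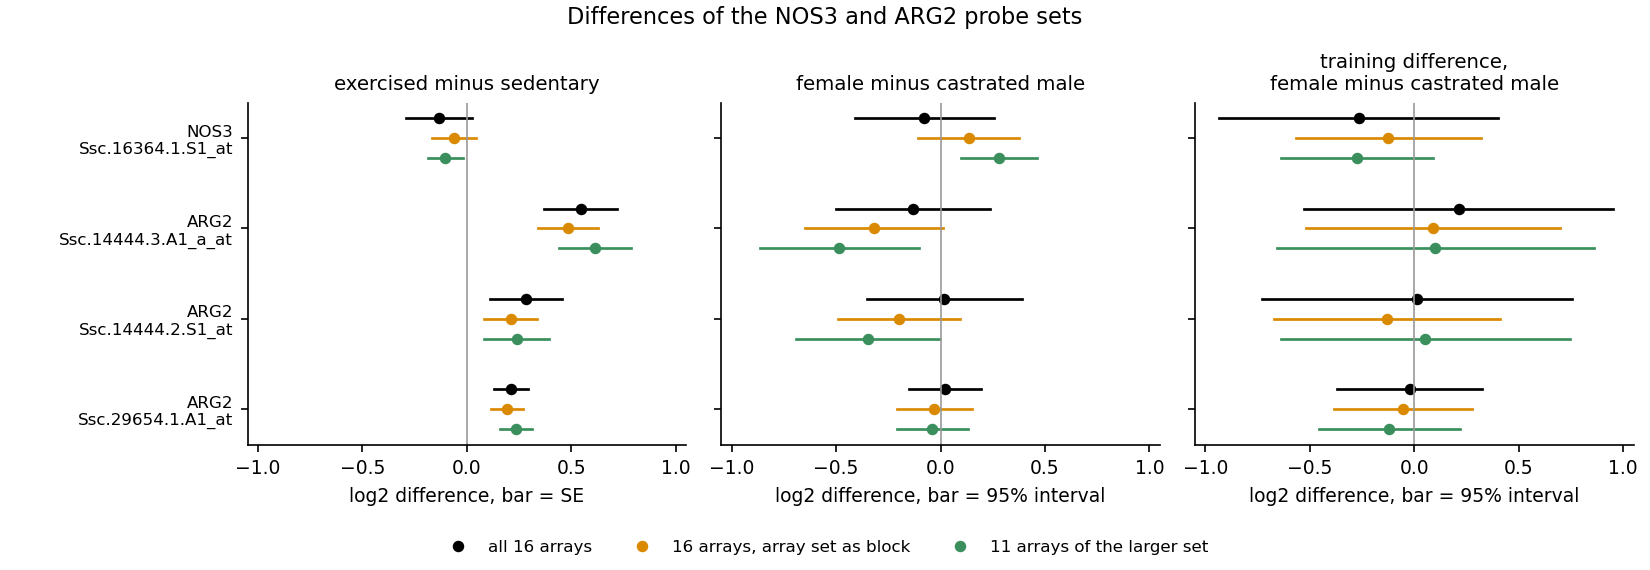
Log2 differences of, from top to bottom, NOS3 and the brightest, second and dim ARG2 probe sets for training, sex and the sex difference in the training effect, from 16 arrays, from 16 arrays with the array set as a block and from the 11 high-set arrays. Bars are standard errors in the training panel and 95% intervals in the others; in the sex panel the NOS3 value is -0.08 over 16 arrays and 0.28 over 11.

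NOS3 is expressed mainly in endothelial cells, so endothelial markers were placed beside it. Of 22 markers listed, 15 were measured, and their mean level ran from 8.17 to 8.62 log2 in exercised animals, against 8.38 to 8.64 in sedentary animals. None of the 15 passed for training by limma, and 1 had an unadjusted p under 0.05. Over the array 10% of the brightest probe sets passed, and 27% of all probe sets had an unadjusted p under 0.05. The median difference of the 15 was -0.05, beside 0.01 over the brightest probe sets of 6765 genes. FLT1, a VEGF receptor, was at -0.39 (limma adjusted p = 0.0609), and PECAM1, an endothelial adhesion molecule, at -0.19 (limma adjusted p = 0.287). The FLT1 difference was -0.55 within the high set and -0.006 within the low set. Other FLT1 probe sets were at -0.12 and -0.03, without passing. S1PR1, a receptor for sphingosine 1-phosphate, was at -0.18, the tight junction gene CLDN5 at 0.30 and the secreted factor gene EGFL7 at 0.23, without passing. With array set as a block EGFL7 passed, at 0.35 (limma adjusted p = 0.00659), and in the high set alone it was at 0.40 (limma adjusted p = 0.0176) and PECAM1 fell by 0.40 (limma adjusted p = 0.0133). In whole tissue, fewer cells of a type and less RNA per cell cannot be told apart.

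Of all named genes, ESAM had the pattern most like NOS3, with r = 0.890 over 16 arrays and 0.837 over the 11 high-set arrays. ESAM codes for an adhesion molecule of endothelial junctions and was among the listed markers. Its signal ran from 8.51 through a median of 8.73 to 9.11 log2 in exercised animals, against 8.45, 8.93 and 9.19 in sedentary animals. The next most alike were MYO1C, an unconventional myosin gene (r = 0.885), SMAGP, a small membrane glycoprotein gene (r = 0.884), NRIP2 (r = 0.869) and PDLIM7, a PDZ and LIM scaffold gene (r = 0.869). In the high set alone these 4 had r = 0.582, 0.739, 0.523 and 0.401.

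Other endothelial markers followed NOS3 unevenly. Over 16 arrays 7 of the 15 correlated positively with NOS3 and 8 negatively, from -0.447 for ICAM2 to 0.890 for ESAM. Within the high set 14 of 15 correlated positively, with a median r of 0.168. ENG, a TGF-beta co-receptor of endothelium, had r = 0.758 over 16 arrays and 0.00432 in the high set, and was 1.21 log2 higher in the low set. CLDN5 differed by -0.66 there, and 6 of the 15 markers had a higher mean in the low set. These are descriptions across arrays that share a split, and their part in the NOS3 level was not tested.

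**Figure D3:**
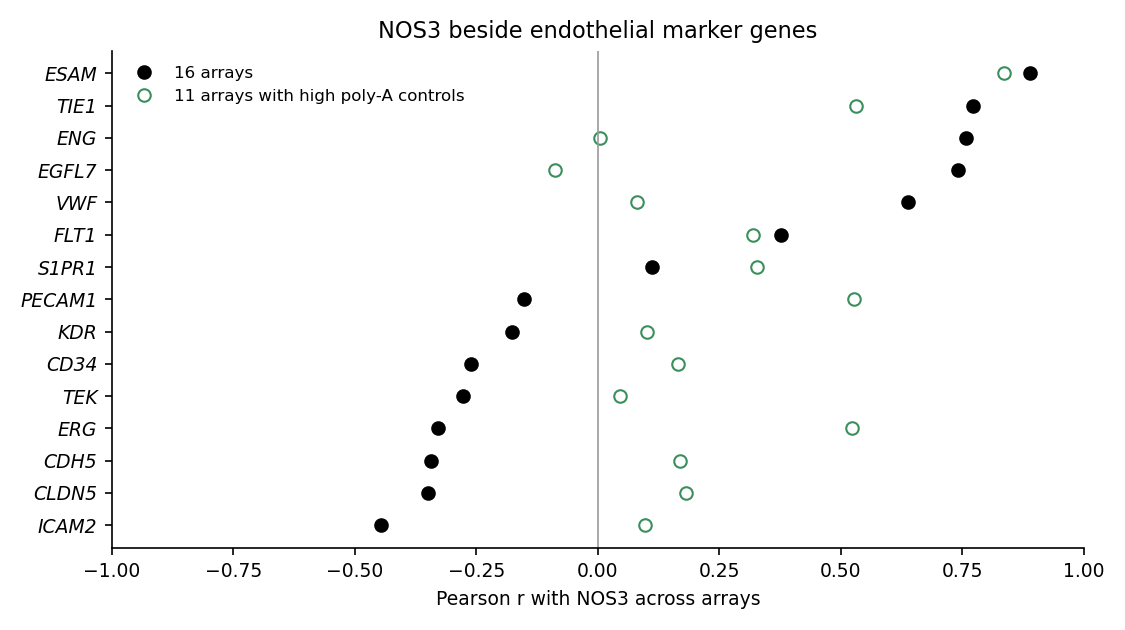
Pearson r between NOS3 and each of 15 endothelial marker genes across arrays, for all 16 arrays (filled) and for the 11 arrays of the high set (open). ESAM lies near 0.890 and 0.837, while markers from PECAM1 down to ICAM2 are negative over 16 arrays and positive in the high set.

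For the brightest ARG2 probe set the most alike named gene was PPP1R14B, an inhibitor of protein phosphatase 1 (r = 0.915 over 16 arrays, 0.939 in the high set). B4GAT1, a glycosyltransferase gene that acts on dystroglycan, had r = 0.914, and ASAH1, the acid ceramidase gene, 0.890. TEX10 and BAG6, a chaperone gene, had r = 0.880 and 0.869. The r of these 5 lay between 0.857 and 0.939 in the high set. Because the training difference of ARG2 enters this r, the direction of these genes in training is not read. With combinations of training and sex centred, the 5 leading genes for ARG2 were CLDN3, a claudin gene (r = 0.920), PRTN3, ASB3, MRPL2 and U2AF1L4. Their training differences were -0.38, -0.08, 0.05, 0.01 and -0.07, beside 0.55 for ARG2. For NOS3 the leading genes after centring were MAPK8IP3, a kinase scaffold gene (r = 0.921), SMAGP, MYO1C, ESAM and ARHGDIA.

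NOS3 and ARG2 were then set against each other within each training group, on the brightest ARG2 probe set. In exercised animals Pearson's r was -0.606 (exact permutation p = 0.116) and Spearman's rho -0.357 (exact permutation p = 0.389), over 8 animals. In sedentary animals r was -0.651 (exact permutation p = 0.0739) and rho -0.619 (exact permutation p = 0.115), over 8 animals. Adjusted over these 4 two-sided tests the smallest exact permutation p was 0.154. Without the 2 animals farthest in NOS3, r was -0.246 in exercised animals, where these were the low-set animals 7 and 8, and -0.417 in sedentary animals. The 6 exercised high-set animals gave r = -0.246 and rho = 0.143 (exact permutation p = 0.665 and 0.803), and the 5 sedentary high-set animals fell under the minimum of 6 used for a correlation. As descriptions with no test, r was -0.523 over the 11 high-set arrays of both training groups, and -0.651 over 16 arrays with each combination of training and sex centred. With 1 animal left out at a time r ran from -0.817 to -0.465 in exercised animals, the lowest without exercised 2, and from -0.911 to -0.523 in sedentary animals, the lowest without sedentary 2.

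**Figure D4:**
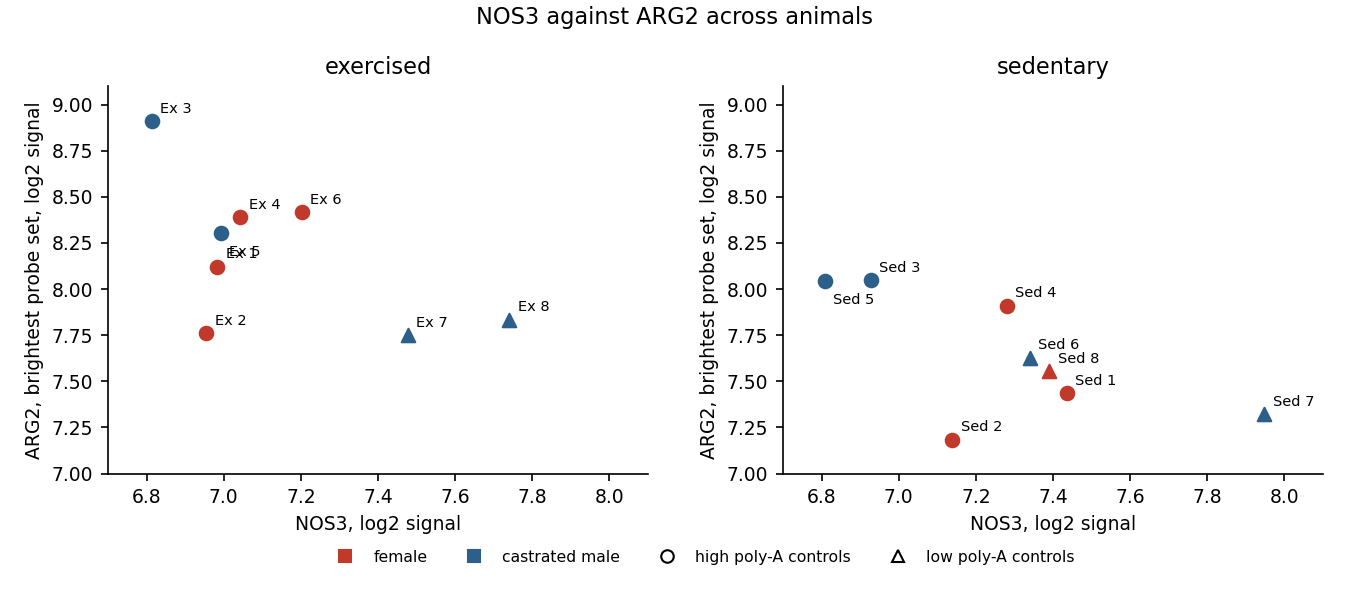
Log2 signal of the brightest ARG2 probe set against that of NOS3 for 8 exercised (left) and 8 sedentary pigs (right), with colour for sex and shape for the array set. Exercised 7 and 8 sit at the lower right, at NOS3 values of 7.48 and 7.74, and r is -0.606 and -0.651 in the 2 groups.

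The rest of the arginine and nitric oxide pathway was read from lists of known pathway genes, each gene taken at its brightest probe set. Of 100 genes listed 56 were measured, and 2 rose, 2 fell and 52 did not pass for training. Over the brightest probe sets of all 6765 genes 10% passed, 5.11% higher and 4.91% lower. Of all probe sets 27% had an unadjusted p under 0.05. In the high set alone 2 rose and 1 fell, and with array set as a block 3 rose and 4 fell.

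Arginine transporters did not pass: 0 of 3 measured of 9 listed, by limma, with 0 at an unadjusted p under 0.05 and a median difference of -0.02. SLC7A1, the main cationic amino acid transporter, was at -0.02 (SE 0.197), and SLC3A2, the heavy chain partner of several carriers, at -0.08 (SE 0.081). SLC7A7, of the exporter y+LAT1, was at 0.03 on its brightest probe set. A second, dimmer SLC7A7 probe set was 0.26 higher in exercised animals (limma adjusted p = 0.0387).

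Among enzymes of arginine, the urea cycle and polyamines, 1 rose, 0 fell and 19 did not pass of 20 measured of 27 listed, with a median of 0.01. The gene that rose was OTC, ornithine transcarbamylase, which turns ornithine, the product of arginase, into citrulline in mitochondria. OTC ran from 5.72 through a median of 5.87 to 6.06 log2 in exercised animals, against 5.06, 5.31 and 5.49 in sedentary animals. The groups did not overlap, as held for 2.23% of the 6765 genes, 1.09% higher and 1.14% lower. OTC was 0.61 log2 higher in exercised animals (SE 0.0647, limma adjusted p = 4.42e-05), with 0.65 in the low set and 0.59 in the high set. Its probe set lay at the 40.3 percentile of level.

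The enzymes next to OTC and ARG2 did not pass. CPS1, which makes the carbamoyl phosphate that OTC uses, was at 0.14 (SE 0.0606, limma adjusted p = 0.147). The CPS1 probe set was dim, at the 21.9 percentile of level. OAT, which turns ornithine toward proline and glutamate, was at -0.20 (SE 0.11, limma adjusted p = 0.272). SMOX, spermine oxidase, was at 0.12 and AGMAT, agmatinase, at -0.10. ARG1, the cytosolic arginase, was at 0.11 (SE 0.197) on a dim probe set, at the 15.1 percentile of level. The ARG1 difference was -0.26 within the high set, and positive and larger in size within the low set. ASS1, which starts the return of citrulline to arginine, was at 0.11, and ASL, which completes it, at 0.01. ODC1, the first enzyme of polyamine synthesis, was at -0.15 on its brightest probe set. These last 4 genes are named as the direct neighbours of ARG2, chosen after their values were seen.

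Asymmetric methylarginines compete with arginine at nitric oxide synthase. Genes for the formation and clearance of methylarginines, asymmetric or not, did not pass: 0 of 5 measured of 10 listed, by limma. Among the 5, 1 had an unadjusted p under 0.05. Their median was 0.08. The arginine methyltransferase genes PRMT5, PRMT2 and PRMT7 were at 0.16, 0.11 and 0.08. DDAH1, which degrades asymmetric dimethylarginine, was at 0.07 and AGXT2 at -0.03. PRMT5 passed with array set as a block, at 0.19 (limma adjusted p = 0.0474).

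Among nitric oxide synthases, their partners and their cofactor enzymes, 0 rose, 2 fell and 16 did not pass of 18 measured of 30 listed, with a median of -0.01. Both that fell code for Krüppel-like factors of endothelium that are known to raise NOS3 transcription under laminar flow. KLF4 ran from 7.61 through a median of 8.17 to 8.26 log2 in exercised animals, against 8.28, 8.84 and 9.09 in sedentary animals, without overlap. It fell by 0.64 log2 in exercised animals (SE 0.0994, limma adjusted p = 0.00063). KLF2 fell by 0.29 (SE 0.0617, limma adjusted p = 0.00601) on a dim probe set, and did not pass in the high set alone, at -0.23 (limma adjusted p = 0.0833). The caveolin gene CAV2 was at -0.13, the chaperone gene HSP90AA1 at -0.12 and LYPLA1, which can remove palmitate from the synthase, at 0.10, without passing. Another HSP90AA1 probe set went the other way and was 0.27 higher in exercised animals (limma adjusted p = 0.0395).

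In nitric oxide and cyclic GMP signalling 1 rose, 0 fell and 9 did not pass of 10 measured of 24 listed, with a median of 0.03. KCNMA1, the pore of the large calcium-activated potassium channel, rose by 0.34 (SE 0.0699, limma adjusted p = 0.00485). It ran from 5.03 through 5.30 to 5.49 log2 in exercised animals, against 4.75, 4.96 and 5.02 in sedentary animals, without overlap. A dimmer KCNMA1 probe set was at 0.01, and with all probe sets of the gene averaged the difference was 0.17 and did not pass (limma adjusted p = 0.0906). The cyclic GMP phosphodiesterase genes PDE9A and PDE5A were at -0.20 (limma adjusted p = 0.068) and -0.18 (limma adjusted p = 0.222). Both passed with array set as a block, at -0.21 and -0.22. The PDE5A probe set was dim, at the 21.5 percentile of level. A dimmer PDE5A probe set had the opposite sign without the block, at 0.15, and did not pass (limma adjusted p = 0.261). TXNRD1, thioredoxin reductase, was at 0.16 and ADH5, which clears nitrosoglutathione, at 0.12, without passing. GUCY1B3, the shared subunit of the nitric oxide receptor, was at -0.03 and was chosen for its role after its value was seen.

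**Figure D5:**
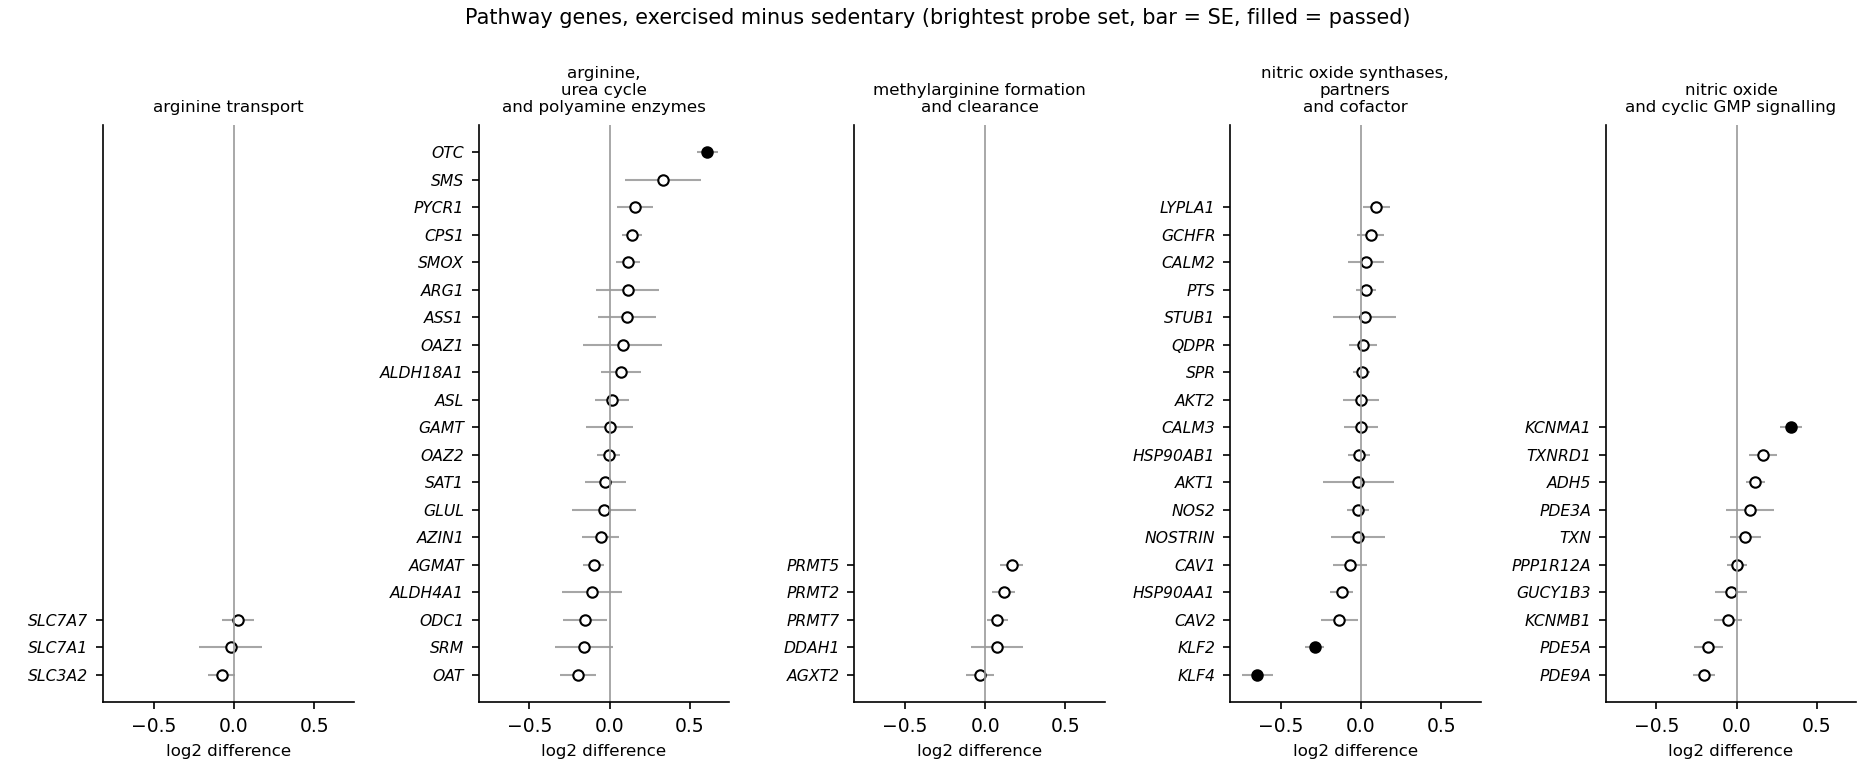
Exercised minus sedentary log2 difference with its standard error for the 56 measured genes of the 5 pathway lists, each at its brightest probe set; filled points passed an adjusted p of 0.05. OTC at 0.61 and KCNMA1 at 0.34 are higher, and KLF2 at -0.29 and KLF4 at -0.64 are lower in exercised animals.

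Markers of the other cell types in the ventricle were read in the same way. Cardiomyocyte markers had 0 of 12 passing, smooth muscle and pericyte markers 0 of 7, fibroblast markers 0 of 7, red blood cell markers 0 of 3 and adipocyte markers 0 of 3, by limma. At an unadjusted p under 0.05 these counts were 1, 1, 3, 0 and 0. Beside them, 10% of the brightest probe sets of 6765 genes passed, and 27% of all probe sets had an unadjusted p under 0.05. Among fibroblast markers COL3A1, a collagen gene, was at -0.25 (limma adjusted p = 0.0811), FBLN1 at -0.33, TCF21 at -0.32, DCN at -0.14 and DPT at -0.17. Among cardiomyocyte markers RYR2, the ryanodine receptor gene, was at 0.36 (limma adjusted p = 0.092), TTN at 0.18, MYL3 and TCAP at 0.09 and TNNI3 at 0.06. These were the genes with the smallest p, and the whole list ran from -0.02 to 0.36 with a median of 0.02. TTN was at 0.28 within the high set and -0.06 within the low set. RYR2 passed with array set as a block, at 0.31 (limma adjusted p = 0.0491). Its dimmest probe set rose by 0.41 (limma adjusted p = 0.0132), and a further one was at -0.04 without passing. Among smooth muscle and pericyte markers KCNJ8 was at -0.34, CNN1 at -0.43, TAGLN at -0.20, PDGFRB at 0.16 and RGS5 at 0.18. The red blood cell genes HBB, ALAS2 and AHSP were at 0.13, -0.03 and -0.01. For ALAS2 and AHSP these averaged opposite differences, -0.53 and -0.52 within the high set and 1.26 and 1.25 within the low set. HBB was at 0.07 and 0.20 there. The adipocyte genes FABP4, LEP and ADIPOQ were at -0.13, 0.03 and -0.08.

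Of 9 leukocyte and macrophage markers 3 rose, 0 fell and 6 did not pass, beside 5.11% higher and 4.91% lower over 6765 genes. S100A8, a myeloid calcium-binding protein gene, rose by 0.49, CD3G, of the T cell receptor complex, by 0.56 and CD79B, of the B cell receptor, by 0.26, all on dim probe sets. Other members did not pass and pointed both ways. AIF1 was at 0.43 (limma adjusted p = 0.0508), PTPRC at 0.21 and CD3E at 0.18, against CD163 at -0.24 and CD14 at -0.29. With array set as a block AIF1 passed, at 0.43 (limma adjusted p = 0.0489). A dimmer CD14 probe set was at 0.07, without passing. S100A9, the partner of S100A8, was at -0.45 (SE 0.445) on a dim probe set. Its SD was 1.39 in sedentary and 0.29 in exercised animals. The S100A9 difference was -0.82 within the high set and 0.33 within the low set. In the high set alone CD3G and CD79B did not pass (limma adjusted p = 0.1 and 0.0796). The mean level of that list ran from 5.99 to 6.38 log2 in exercised animals, against 5.61 to 6.76 in sedentary animals. The part of cell composition in the ARG2 and OTC differences was not tested.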

How the data were processed

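The authors deposited a log2 signal for every probe set, from biotin-labelled cRNA on 1 Affymetrix array per animal, per the labels' protocols. Neither summarisation nor normalization is stated in the labels. All 16 arrays had closely matching distributions, with medians from 6.236 to 6.242, so nothing further was applied. Of 24123 probe sets 188 controls were left out. Symbols come from the platform annotation; both genes matched the RefSeq table of Sscrofa11.1 by Entrez identifier.

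With limma 3.58.1 (R 4.3.3), 4 means, 1 per training and sex group, were estimated from the 16 arrays and variances moderated by eBayes, on 12 residual and 3.50 prior degrees of freedom. P-values are two-sided, adjusted by Benjamini-Hochberg over 23935 probe sets, with a threshold of 0.05. Rose, fell and passed refer to it. Differences within an array set are plain differences of group means, except the sex differences in the high set, which are from the fit. Array sets were parted at the widest gap in the mean of 36 poly-A control probe sets. The fit was tested on simulated data with independent noise and no array-set split, so that test does not bear on the split.

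Genes named are the 5 with the smallest training p per list and the 5 most correlated with each member; ESAM's range, all 9 leukocyte markers, direct neighbours of ARG2, GUCY1B3 and genes whose probe sets disagree were added after their values were seen. Members, lists and tests were chosen with earlier results of these data known. Separate animals are the replicates, and their number limits the precision. Alternatives were other normalizations, filters on dim probe sets, another variance model, array weights, the array set or replicate number as a block, no sex term and leaving out each animal.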

Additional observations from a re-analysis of the deposited data

Results flagged for a closer look

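The check covered 58 probe sets, those of the members and of the genes with the smallest training p per list, in both training groups. Genes named for other reasons, such as S100A9, were not checked. Of 116 groups 9 held an animal far from the others, where chance gives about 1 in 20. None was a NOS3 or ARG2 probe set. ADIPOQ, the adiponectin gene, was at 7.52 log2 in exercised 4, with the next animal at 4.77. CNN1, a smooth muscle gene, was at 9.83 in sedentary 7, which also had the highest NOS3 value, with the next at 8.73. KLF4 was at 7.61 in exercised 1, below the next at 7.97. S1PR1 was at 10.70 in exercised 6 and CD79B at 4.38 in exercised 1, both above the rest. SLC7A7 was high at 6.21 in sedentary 4. CPS1 was low at 4.06 in sedentary 1 and AGMAT low at 5.65 in sedentary 6. TNNI3, cardiac troponin I, was high at 14.52 in sedentary 3, with the next at 14.47.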

How the results depend on the processing

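The training differences of all 4 probe sets kept their sign under every alternative run. Leaving out 1 animal at a time gave -0.21 to -0.02 for NOS3 and 0.43 to 0.62, 0.18 to 0.36 and 0.17 to 0.26 for the brightest, second and dim ARG2 probe sets. The dim ARG2 probe set lay below the 40th percentile of level, so neither filter gave a value for it. The sex differences turned sign under some alternatives, and none passed. For NOS3 the value was 0.14 with array set as a block, 0.28 in the high set alone and -0.152 to 0.038 with 1 animal left out, above 0 without exercised 8 or sedentary 7. For the second ARG2 probe set these were -0.20, -0.35 and -0.067 to 0.127, and for the dim one -0.029, -0.039 and -0.027 to 0.053. The sex difference in the training effect was -0.13 with array set as a block and -0.14 to 0.23 with 1 animal left out for the second ARG2 probe set. For the dim one it was 0.036 with array weights and -0.119 to 0.067 with 1 animal left out. The cause of these changes was not tested.

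The labels do not say what a replicate number shares. The correlation between same-numbered animals ran from -0.0331 to 0.3855, over 0.1 in 5 of 8 pairs, and 1 of 8 correlated best with its own number, so the numbers were not taken as pairs. With the replicate number as a block, the sex difference was 0.25 for the brightest ARG2 probe set. Only replicate numbers 6 and 8 joined a female and a castrated male, so that value rests on those animals alone. Exercised 6 was in the high set and sedentary 6 in the low set. The sex difference in the training effect was -0.054 for the second ARG2 probe set and 0.11 for the dim one under the replicate block. Under that block 5 markers were higher and 4 lower, against 3 and 0.

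Pathway genes higher in exercised animals numbered 2, and were 1 with all probe sets of a gene averaged, 1 above the 40th percentile of level and 0 above the 60th. Those lower numbered 2, and were 4 with array set as a block and 1 in the high set alone or above either percentile. OTC, KCNMA1 and KLF2 lie on dim probe sets that such filters can remove. Markers higher numbered 6 with array set as a block, 0 above either percentile and 3 to 4 with 1 animal left out. Markers lower numbered 1 with array weights or in the high set alone, 2 with probe sets averaged and 0 to 3 with 1 animal left out, with 3 without exercised 8. The relation of NOS3 to ARG2 ran from -0.817 to -0.465 in exercised and from -0.911 to -0.523 in sedentary animals with 1 animal left out. Signal near the array's lower end limits the dim ARG2 probe set, and no scanner background was used here.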

Other observations

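Some genes of the pathway and marker lists passed for training on one probe set and not on their brightest. ODC1 was at -0.15 on its brightest probe set and rose by 0.32 on a dimmer one (limma adjusted p = 0.0357). GLUL, glutamine synthetase, was at -0.03 on its brightest and fell by 0.32 on a dimmer one (limma adjusted p = 0.00473). Of 6 CALM3 probe sets, for calmodulin, which activates nitric oxide synthase, 1 fell by 0.26, 1 rose by 0.25 and the brightest was at 0.00. VWF, the von Willebrand factor gene of endothelium, was at -0.00 on its brightest probe set and fell by 0.39 on its dimmest (limma adjusted p = 0.000548). KCNJ8, a pericyte potassium channel gene, had the same sign on all 3 probe sets. It fell on 2 of 3 probe sets, by 0.38 and 0.54, and was at -0.34 on the brightest without passing (limma adjusted p = 0.117).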
